A study of Mus musculus with 38 samples.

Results

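Glucose handling in the mouse kidney was followed through 9 genes: Pck1, Fbp1, G6pc and Slc37a4 of gluconeogenesis, its coactivator Ppargc1a, and the glucose carriers Slc5a2, Slc5a1, Slc2a2 and Slc2a1. The members were named by symbol, and all 9 were found among the 55487 genes of the count table and passed the filter on low counts in every experiment. The list was selected on a measured value, the lower level of G6pc in mice with anti-GBM disease given FGF23 than with vehicle, so the values of that contrast are given as a description, and no p-value is given for G6pc in a comparison that uses its anti-GBM libraries. The 38 RNA-Seq libraries form 10 groups in 3 experiments, which asked how an excess of FGF23, the phosphate-regulating hormone of bone, acts on healthy and on diseased kidneys. In the anti-GBM experiment, male C57BL/6 mice (label C57BL/6JRj) were immunized with sheep IgG in adjuvant and injected with a nephrotoxic serum against the glomerular basement membrane, or received PBS as healthy controls. They were then injected intravenously with 1 µg of recombinant human FGF23 or with vehicle on each of 6 days, giving 4 healthy mice with vehicle, 3 healthy mice with FGF23, 4 anti-GBM mice with vehicle and 3 anti-GBM mice with FGF23. In the Adriamycin experiment, female BALB/c mice received the podocyte toxin Adriamycin or its vehicle and then a single intravenous injection of 1 µg of FGF23 or vehicle 24 h before dissection, with 4 mice in each of the 4 groups. Mice of both experiments were 10 weeks old at the end. Precision-cut kidney slices (PCKS) came from male DBA/2J mice aged 23 weeks with nephropathy from an adenine diet, and 4 cultures with vehicle and 4 with 200 ng/mL FGF23 were sequenced. Slices had no disease-free controls, and the labels give 1 h of treatment where the text of the study gives a day. For healthy controls of the anti-GBM experiment the methods name only PBS, and do not say whether they received adjuvant and sheep IgG. Effects of the immunization can therefore not be told apart from those of the serum. Strain, sex, disease and culture cannot be told apart between experiments.

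Gluconeogenesis makes new glucose from lactate, glutamine and glycerol, and next to the liver the renal proximal tubule is the tissue that carries it out. Pck1 encodes the cytosolic phosphoenolpyruvate carboxykinase that commits oxaloacetate to the pathway, Fbp1 the fructose-1,6-bisphosphatase further along, and G6pc the catalytic subunit of glucose-6-phosphatase, which frees glucose in the endoplasmic reticulum from the glucose-6-phosphate that the translocase Slc37a4 brings in. Proximal tubule cells do not only make glucose but also reclaim the filtered glucose, through the sodium-coupled carriers SGLT2 (Slc5a2) in the early and SGLT1 (Slc5a1) in the late segments at the luminal side, and pass it to blood through GLUT2 (Slc2a2) and GLUT1 (Slc2a1) at the basolateral side. GLUT1 is also the general carrier of many other cells and a classical target of hypoxia signalling.

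The promoters of G6pc, Pck1 and Slc2a1 are shown because Pck1 and Slc2a1 were called in anti-GBM disease and G6pc is the member known from it, and because they carry letters known from work on hormonal, cAMP and hypoxia control of these genes. Sequences are from RefSeq for GRCm38.p6, a patch release of the assembly to which the reads were aligned, on the plus strand, and end 10 bases after the first annotated start of the gene. The annotated genes span chr11:101367561-101377903 (G6pc), chr2:173153048-173159273 (Pck1) and chr4:119108711-119137983 (Slc2a1), all on the plus strand. Capitals mark TGTTTTG, the core of insulin-response elements bound by FOXO factors, and TTACGTNA, an octamer like the cAMP-response element, in G6pc and Pck1, and ACGTG, the core of hypoxia-response elements, in Slc2a1.
G6pc, chr11:101367466-101367570: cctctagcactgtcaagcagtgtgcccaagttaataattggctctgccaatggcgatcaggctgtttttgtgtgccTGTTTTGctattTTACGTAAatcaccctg
Pck1, chr2:173152823-173153057: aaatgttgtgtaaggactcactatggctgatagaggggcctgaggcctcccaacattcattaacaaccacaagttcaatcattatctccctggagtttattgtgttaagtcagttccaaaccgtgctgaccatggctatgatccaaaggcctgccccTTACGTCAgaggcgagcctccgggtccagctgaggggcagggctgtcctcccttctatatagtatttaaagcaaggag
Slc2a1, chr4:119108495-119108720: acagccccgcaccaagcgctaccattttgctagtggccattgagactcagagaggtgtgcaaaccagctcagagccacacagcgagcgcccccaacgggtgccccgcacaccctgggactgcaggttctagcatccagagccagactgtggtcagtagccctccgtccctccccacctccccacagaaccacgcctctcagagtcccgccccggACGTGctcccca

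In G6pc, TGTTTTG and TTACGTAA lie 174 and 162 bases before the RefSeq start, and in Pck1 TTACGTCA lies 93 bases before it. ACGTG lies 36 bases before that of Slc2a1. The RefSeq starts lie downstream of the first annotated starts, so that TTACGTAA of G6pc reaches, and ACGTG of Slc2a1 spans, the first annotated start of its gene. The 3 motifs were searched on both strands of the 250 bases before the start and do not overlap in the stretches shown. The octamer was settled on after these promoters had been read. Of 32851 RefSeq promoters, 0.788% hold TTACGTNA, 5.56% hold TGTTTTG and 16.6% hold ACGTG. Of the 8 members with a promoter in the table, all but Slc5a2, TTACGTNA was found in G6pc and Pck1, TGTTTTG in G6pc, and ACGTG in Slc2a1, Ppargc1a and Slc5a1. A match is a description of letters and was not tied to any factor here.

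Total counts per library ranged from 13704248 to 23630210 in the anti-GBM experiment, from 15665050 to 27583911 in the Adriamycin experiment and from 11186925 to 16254987 in PCKS, and the lowest count of any member was 119. Levels are given as CPM, counts scaled to a common library size with TMM factors within an experiment, and p-values are from edgeR's quasi-likelihood test with Benjamini-Hochberg adjustment over all genes tested. Kidney identity was checked on 12 proximal tubule markers, none of which was at 0 in all libraries of a group. Their summed level was 18490 to 21600 CPM in healthy C57BL/6 mice, 12860 to 17320 CPM in anti-GBM mice given vehicle, 11050 to 14020 CPM in anti-GBM mice given FGF23 and 13830 to 16930 CPM over the Adriamycin experiment. In PCKS the sum was 599 to 1394 CPM, so the slices held little RNA of these markers. Slc7a13, a marker of the late proximal tubule, was near 0 in the female BALB/c mice, with group means of 0.861 to 1.68 CPM. In bulk tissue, fewer cells of a type and less RNA per cell cannot be told apart. The hepatocyte gene Alb, checked because liver shares the gluconeogenic genes, had group means of at most 14.8 CPM, and the other hepatocyte markers Apoa2 and Serpina1a of at most 4.56 and 35.2 CPM. The fourth, Cyp2e1, which the mouse kidney also expresses, reached 1952 CPM.

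Relative to transcript length, Fbp1 and Pck1 were the most abundant members in healthy kidneys. In healthy C57BL/6 mice given vehicle, Fbp1 was at 664 ± 42.3 (SD, n = 4) and Pck1 at 566 ± 135 CPM per kb of exon, a difference within their spread. Slc5a2 at 204 ± 34.8 and G6pc at 156 ± 12.7 CPM per kb came next, followed by Slc37a4 at 89.7 ± 8.01 and Slc2a2 at 43.1 ± 11.1 CPM per kb. Slc5a1, Ppargc1a and Slc2a1 were lowest, at 24.3 ± 5.57, 13.1 ± 0.892 and 11.7 ± 1.26 CPM per kb. In healthy BALB/c mice given vehicle, Pck1 had the highest level at 1599 ± 187 CPM per kb, before Fbp1 at 792 ± 29.9 and G6pc at 279 ± 47.0 CPM per kb (SD, n = 4). Strain and sex both differ between these groups and the experiments were scaled separately, so this order was not tested.

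The order in the slices was another. Slc2a1 had the highest level there, at 566 ± 119 CPM per kb with vehicle (SD, n = 4), and its level was 1453 to 2433 CPM in the 8 cultures, where it was 36.5 to 87.3 CPM in the kidneys of the anti-GBM experiment and 43.1 to 78.5 CPM in those of the Adriamycin experiment. The other 8 members lay below their kidney levels, as the proximal tubule markers did, but to unlike degrees. Slc5a1, at 29.5 to 52.4 CPM in the slices, was at 72.4 to 143.5 CPM in the anti-GBM and 81.8 to 113.2 CPM in the Adriamycin experiment. Ppargc1a, at 18.3 to 30.9 CPM in the slices, was at 59 to 95.9 and 93.2 to 146.1 CPM there. Both fell less than the marker sum did. Pck1 was at 77.4 to 304 CPM, G6pc at 9.96 to 25.6 CPM and Slc2a2 at 10.3 to 16.2 CPM in PCKS. The ratio of Slc5a2 to Slc5a1 in CPM, which was 2.60 to 9.23 in the anti-GBM experiment and 4.70 to 7.35 in the Adriamycin experiment, was 0.564 to 1.40 in the slices. The experiments were normalized separately and PCKS differ from the kidneys in strain, disease, age and culture, so these levels are set side by side without a test. Slc5a2 overlaps BC017158 on the other strand, which was at 27.4 to 36.1 CPM over all libraries, and the strand setting of the counting is not given in the sources used here, so reads of this pair cannot be told apart where Slc5a2 is low.

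**Figure D1:**
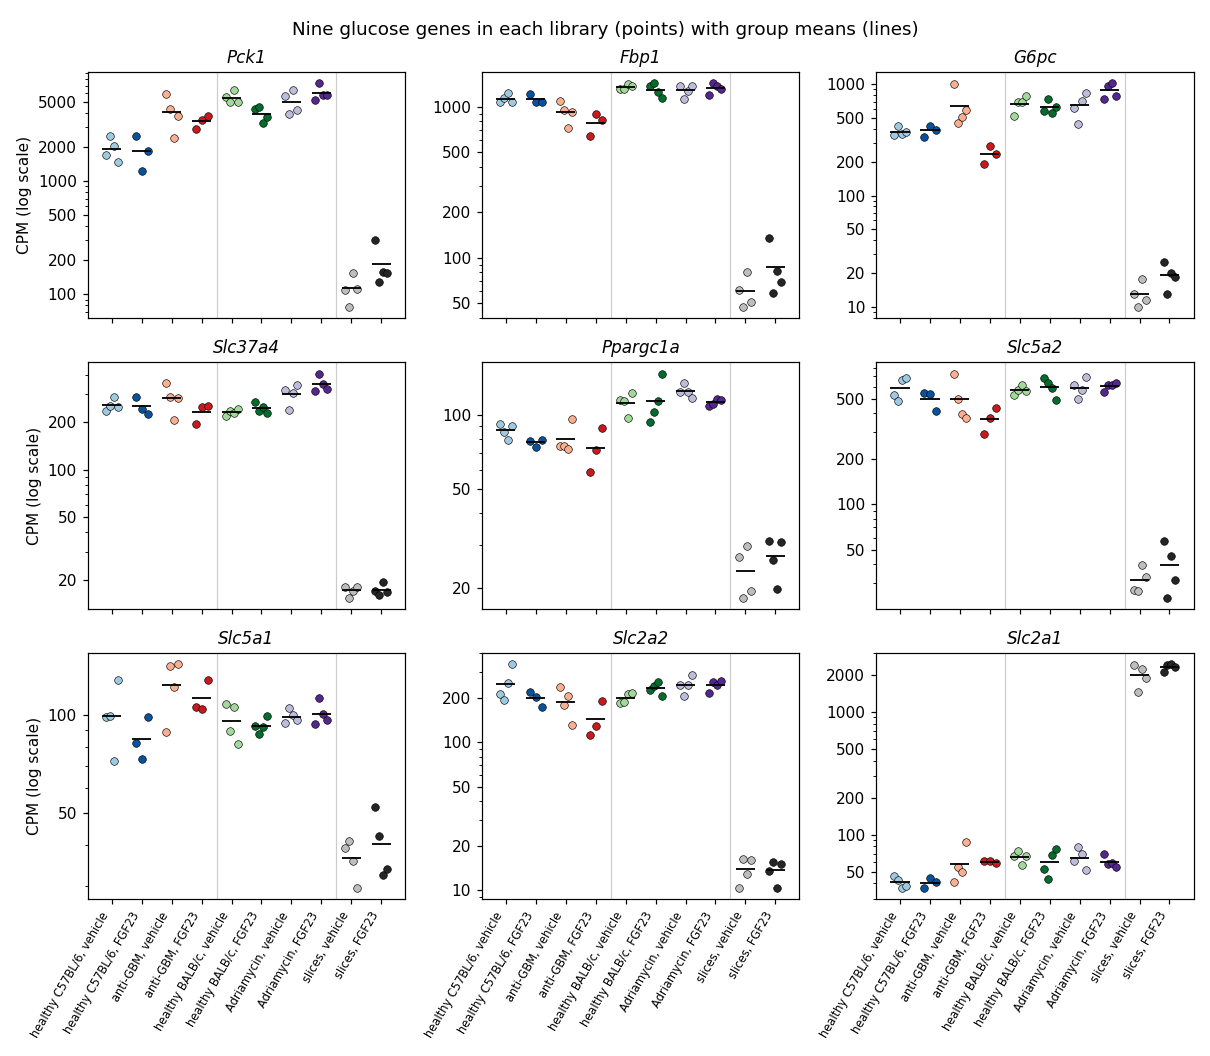
Level of each of the 9 genes in every library, in CPM on a log axis that differs between panels. Points are libraries, lines are group means, and grey lines part the 3 experiments. Pck1 was at 1221 to 5895 CPM in the kidneys of the anti-GBM experiment and at 77.4 to 304 CPM in the slices, whereas Slc2a1 went from 36.5 to 87.3 CPM in these kidneys to 1453 to 2433 CPM in the slices.

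In anti-GBM mice given vehicle, Pck1 and Slc2a1 rose compared with healthy mice given vehicle, and G6pc was higher as well. This comparison set mice given the whole anti-GBM protocol, immunization and serum, against mice given PBS. Pck1 was at 1701, 2529, 2066 and 1466 CPM in the healthy mice NTS1 to NTS4 and at 5895, 4316, 2392 and 3777 CPM in the anti-GBM mice NTS5 to NTS8. All but NTS7 lay above every healthy mouse. The log2 fold change was 1.08 ± 0.26 (SE, adjusted p = 0.00548 by edgeR), a 2.11-fold rise. G6pc was at 352, 421, 361 and 372 CPM in the healthy and at 999, 452, 508 and 592 CPM in the anti-GBM mice, so that the groups did not overlap, with a log2 fold change of 0.76 ± 0.20 (SE). NTS5 was highest in both genes and also had the highest proximal tubule marker sum of its group, and without it the log2 fold changes were 0.89 for Pck1 and 0.50 for G6pc. The share of all tested genes whose groups did not overlap was 35.2%, and in the other 8 members the groups overlapped.

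Fbp1, Slc37a4 and Ppargc1a did not pass the threshold. Fbp1 was at 1080, 1138, 1228 and 1071 CPM in healthy mice and at 1084, 952.9, 722.5 and 921.8 CPM in diseased ones, and its log2 fold change was -0.30 ± 0.13 (SE, adjusted p = 0.0756 by edgeR). Slc37a4, at 206 to 357 CPM in the anti-GBM mice against 234 to 288 CPM, had a log2 fold change of 0.15 (95% interval -0.16 to 0.46). Ppargc1a, the coactivator that drives transcription of gluconeogenic genes in liver, had one of -0.12 (95% interval -0.37 to 0.13).

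Among the carriers, Slc2a1 rose. It was at 46.4, 42.5, 36.5 and 38.4 CPM in healthy mice and at 40.9, 54.4, 49.7 and 87.3 CPM in diseased ones, a log2 fold change of 0.50 ± 0.175 (SE, adjusted p = 0.0349 by edgeR). The groups overlapped through NTS5, and the call rested on single mice: without NTS8, the highest, the log2 fold change was 0.28 (adjusted p = 0.0606 by edgeR), and it was also lost without NTS3 or NTS4 (0.49 and 0.51). Slc5a1 had a log2 fold change of 0.32, Slc5a2 of -0.24 and Slc2a2 of -0.40, none of them past the threshold (adjusted p of 0.162, 0.363 and 0.143 by edgeR). Apart from G6pc, whose libraries the rule used, 2 of the other 8 members were higher and 0 lower at an adjusted p under 0.05, where 39.8% of the 15859 genes tested were called, 19.4% higher and 20.4% lower. At an unadjusted p under 0.05 there were 3 of the 8, with Fbp1 as the third, where 48.2% of genes passed. Without NTS5, Fbp1 and Slc5a2 also passed the threshold, lower at -0.34 and -0.44, as did Slc5a1, higher at 0.49. The share of all genes called in that refit is not given here, so nothing is read from these further calls.

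Proximal tubule and injury markers moved with these groups. Of the 12 proximal tubule markers 6 were lower and 0 higher in anti-GBM mice given vehicle, and their median log2 fold change was -0.50, against -0.01 over all genes tested. All 5 injured tubule markers were higher, and their sum was 3783 to 16160 CPM against 581 to 919 CPM. The 7 leukocyte markers summed to 123 to 189 CPM against 69.9 to 100 CPM, with 5 of them higher. The share of counts on mitochondrial genes was 7.65% to 8.74% against 11.1% to 12.03%. Their part in the results on the members was not tested.

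Among mice given FGF23, Pck1 was higher and Fbp1 lower in anti-GBM disease than in health. Pck1 was at 2504, 1221 and 1860 CPM in the healthy mice NTS9 to NTS11 and at 2911, 3475 and 3776 CPM in the anti-GBM mice NTS13, NTS14 and NTS16. The groups did not overlap, and the log2 fold change was 0.86 ± 0.30 (SE, adjusted p = 0.0479 by edgeR). Fbp1 was at 1217, 1067 and 1078 CPM in healthy and at 639, 889 and 816 CPM in anti-GBM mice, a fall of 0.52 ± 0.145 on the log2 scale (SE, adjusted p = 0.0164 by edgeR) without overlap. G6pc, at 338, 426 and 392 CPM in healthy and 191, 277 and 238 CPM in diseased mice, had a log2 fold change of -0.71 ± 0.23 (SE) and no overlap. The calls of Pck1 and Fbp1 stood close to the threshold. That of Pck1 was lost without any one of NTS6, NTS10, NTS11, NTS13, NTS14 or NTS16, with log2 fold changes of 0.63 to 0.97, and that of Fbp1 without NTS9 or NTS13, with values of -0.44 and -0.39. Apart from G6pc, 0 members were called without NTS13 and 3 without NTS5. For G6pc, leaving out 1 mouse gave log2 values of -0.84 to -0.58, and relative to the proximal tubule markers, as described further on, the value was -0.08.

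Slc2a1 was at 61.1, 60.6 and 58.8 CPM in the anti-GBM mice given FGF23 and at 36.7, 44.2 and 40.9 CPM in their healthy counterparts, groups that did not overlap. The log2 fold change was 0.57 ± 0.20 (SE, adjusted p = 0.0503 by edgeR), just short of the threshold, and it passed with 5 of 6 other fits of all samples or of these groups, with adjusted p of 0.00245 to 0.0477 by edgeR or DESeq2, while leaving out 1 mouse gave 0.0022 to 0.138. Slc5a1, at 105 to 129 CPM against 73.7 to 98.7 CPM, did not overlap either, with a log2 fold change of 0.42 (adjusted p = 0.137 by edgeR). Slc5a2 and Slc2a2, the carriers of the early segments, had log2 fold changes of -0.44 and -0.47 (adjusted p of 0.178 and 0.173 by edgeR). Apart from G6pc, 1 of the other 8 members was higher and 1 lower, where 27.2% of genes were called, 14.5% higher and 12.7% lower, 3 of the 8 had an unadjusted p under 0.05, where 38.7% of genes did, and 4 of the 8 did not overlap, where 45.4% of genes did not. Of the 12 proximal tubule markers 5 were lower and 0 higher, and their median was -0.53 on the log2 scale. All 5 injured tubule markers were higher, and their sum was 4868 to 8997 CPM against 493.8 to 623.2 CPM. Of the 7 leukocyte markers 4 were higher and 1 lower, with a sum of 178.3 to 192.3 CPM against 79.54 to 124.9 CPM. The share of counts on mitochondrial genes was 6.82% to 7.848% against 9.684% to 10.731%. Their part in these results was not tested. The 2 disease comparisons used different mice.

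**Figure D2:**
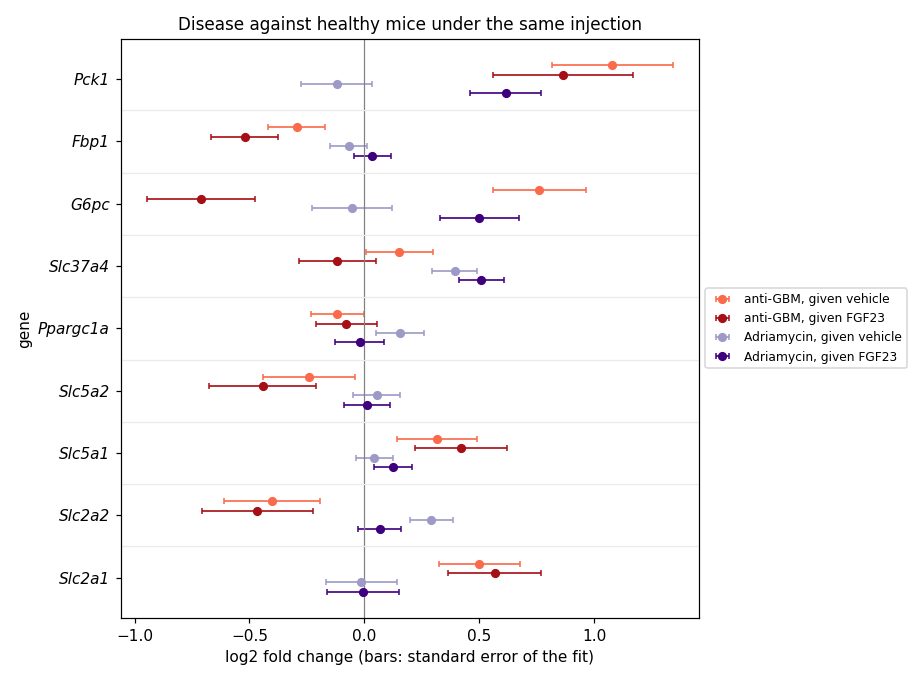
Log2 fold change of each gene in diseased against healthy mice of the same injection, with bars for the standard error of the edgeR fit. G6pc stands at 0.76 in anti-GBM mice given vehicle and at -0.71 in those given FGF23, and Pck1 at 1.08 and 0.86.

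FGF23 against vehicle within anti-GBM mice is the contrast from which G6pc was known. G6pc was at 191, 277 and 238 CPM in the 3 mice given FGF23, below all 4 mice given vehicle (452 to 999 CPM) and also below all 7 healthy mice (338 to 426 CPM). Its mean was 235 ± 43.1 CPM against 638 ± 248 CPM (SD, n = 3 and 4), a log2 fold change of -1.44 ± 0.23 (SE), or 36.9% of the level with vehicle. Without NTS5 the value was -1.13. The call was not made without NTS13 (-1.31) or with only the anti-GBM groups in the fit (-1.43). Of the other 8 members, 7 also had negative values, from -0.12 for Ppargc1a to -0.45 for Slc5a2, and Slc2a1 stood at 0.05. The groups overlapped in all 8, and 9.22% of all genes did not overlap. G6pc was the 1 member called of 9, where 0.24% of genes were called, and 0.00631% were called lower. The rule drew on this contrast, so nothing is read from that count.

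Pck1 of the same pathway was at a higher ratio to G6pc in these mice. The ratio divides by the G6pc level on which the list was selected, so it is given only as a description. At 2911 to 3776 CPM with FGF23 and 2392 to 5895 CPM with vehicle, Pck1 had a log2 fold change of -0.27 ± 0.28 (SE). The ratio of Pck1 to G6pc in CPM was 15.2, 12.6 and 15.9 in the 3 anti-GBM mice given FGF23. It was 4.71 to 9.56 in anti-GBM mice given vehicle, and 2.87 to 7.401 in healthy C57BL/6 mice. In the Adriamycin experiment it was 5.09 to 10.7 in all 16 mice. Slc37a4, whose product feeds glucose-6-phosphatase, was at 194, 249 and 254 CPM with FGF23 and at 357, 289, 206 and 286 CPM with vehicle, a log2 fold change of -0.29 ± 0.16 (SE). The proximal tubule marker sum was 11050 to 14020 CPM with FGF23 and 12860 to 17320 CPM with vehicle, and its part in the lower G6pc was not tested.

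**Figure D3:**
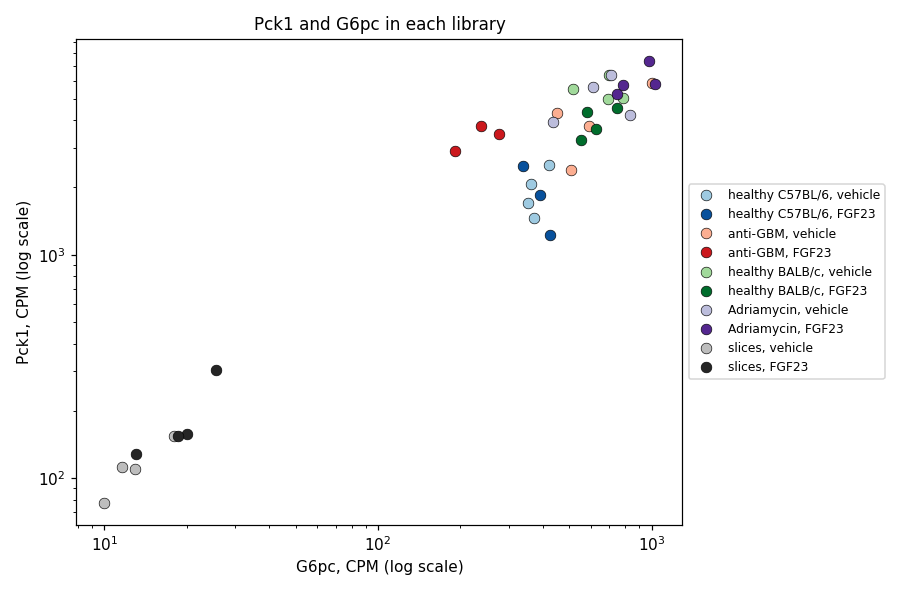
Pck1 against G6pc in each library, both in CPM on log axes. The 3 anti-GBM mice given FGF23 (red) lie to the left of the other kidneys, at 191 to 277 CPM of G6pc and 2911 to 3776 CPM of Pck1, and the slices lie at the lower left.

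Each level was also divided by the proximal tubule marker sum of the same library, a scale chosen after the data were seen. G6pc was at 32.4 to 57.7 CPM per 1000 CPM of markers in anti-GBM mice given vehicle and at 16.96 to 21.5 in those given FGF23, while healthy C57BL/6 mice were at 16.7 to 20.1 with vehicle and 16.2 to 23.02 with FGF23. On this scale the anti-GBM mice given FGF23 lay within the range of healthy mice, and the log2 ratio of FGF23 to vehicle was -1.17 in anti-GBM mice. Pck1 was at 186 to 340 in anti-GBM mice given vehicle and at 263 to 270 in those given FGF23, both above the 66.0 to 121 of healthy C57BL/6 mice. Fbp1 was at 56.2 to 68.4 and 57.8 to 69.1 in the anti-GBM groups and at 51.3 to 56.8 and 55.1 to 58.4 in the healthy groups, and its negative log2 fold changes became 0.19 and 0.11. Of the 12 markers used, 6 were themselves lower in anti-GBM disease, as given above.

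**Figure D4:**
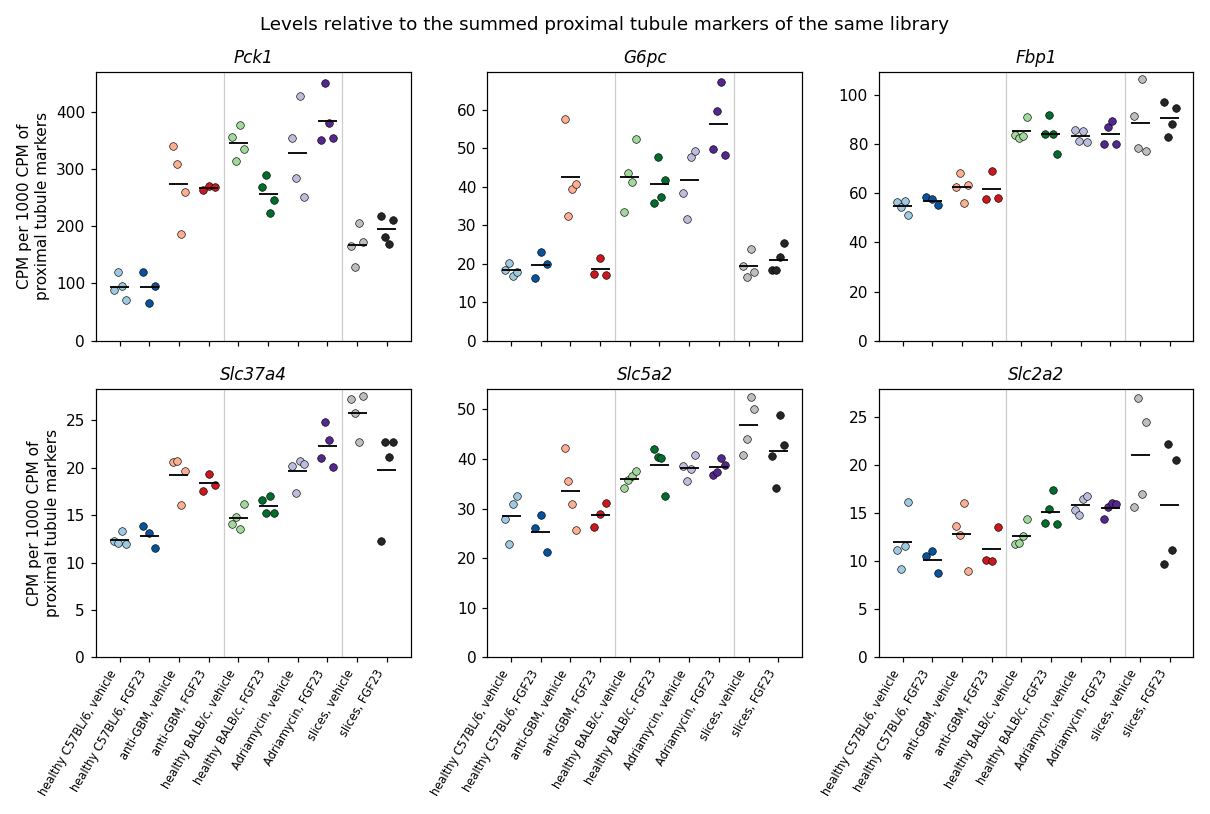
Level of 6 members in every library as CPM per 1000 CPM of the summed proximal tubule markers of that library, on linear axes from 0. Points are libraries and lines are group means. G6pc of anti-GBM mice given FGF23 lies at 16.96 to 21.5, among healthy C57BL/6 mice, and Pck1 of the same mice at 263 to 270, above them.

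In healthy C57BL/6 mice the same injections of FGF23 left no member called. G6pc was at 352 to 421 CPM with vehicle and 338 to 426 CPM with FGF23, a log2 fold change of 0.03 (95% interval -0.43 to 0.50). Pck1 (-0.06), Fbp1 (-0.01), Slc37a4 (-0.02) and Slc2a1 (-0.01) had log2 fold changes near 0. The largest was that of Slc2a2, -0.32 (95% interval -0.81 to 0.16, adjusted p = 0.996 by edgeR). By edgeR 0 of 9 members and 0% of genes were called, 0 members and 4.34% of genes had an unadjusted p under 0.05, and DESeq2 called 0 members and 0 genes as well. The groups overlapped in all 9, where 7.31% of genes did not overlap. The interaction, which sets the FGF23 effect in anti-GBM against that in healthy mice, was -1.47 ± 0.31 (SE) on the log2 scale for G6pc, given as a description. For the other 8 members it lay between -0.27 (Slc37a4) and 0.10 (Slc5a1). Of these 8, edgeR called 0 in the interaction, where 0.0315% of genes were called, 0 had an unadjusted p under 0.05, where 8.3% of genes did, and DESeq2 called 0.

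In the Adriamycin experiment 1 member was called. In mice given FGF23, Slc37a4, the glucose-6-phosphate translocase, rose with Adriamycin. It was at 268, 237, 251 and 227 CPM in the healthy mice Ad9 to Ad12 and at 315, 406, 349 and 327 CPM in the Adriamycin mice Ad13 to Ad16. The groups did not overlap, and the log2 fold change was 0.51 ± 0.10 (SE, adjusted p = 0.0267 by edgeR), or 1.42-fold. The call was lost without any one of Ad10, Ad11, Ad12, Ad14 or Ad15, with log2 fold changes of 0.43 to 0.52 and adjusted p of up to 0.108 by edgeR. With vehicle the same gene was at 218, 234, 229 and 244 CPM in healthy and at 320, 239, 308 and 345 CPM in Adriamycin mice, with a log2 fold change of 0.39 ± 0.10 (SE, adjusted p = 0.132 by edgeR). All but Ad6 lay above the healthy mice, and without Ad6 the value was 0.49 (adjusted p = 0.0127 by edgeR).

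Pck1 and G6pc had positive values in Adriamycin mice given FGF23 that did not pass the threshold in the main fit. Pck1 passed it under 2 alternative settings, while leaving out 1 mouse gave adjusted p of 0.0647 to 0.308 by edgeR. Pck1 was at 5256, 7376, 5803 and 5767 CPM against 4341, 4525, 3278 and 3666 CPM in healthy mice given FGF23, groups that did not overlap, with a log2 fold change of 0.61 ± 0.16 (SE, adjusted p = 0.0917 by edgeR). G6pc was at 745, 975.3, 1028 and 785 CPM against 580, 746, 551 and 624 CPM, with mouse Ad10 level with Ad13, and 0.50 ± 0.17 (SE, adjusted p = 0.242 by edgeR). With vehicle, Pck1 (-0.12) and G6pc (-0.05) had intervals on both sides of 0, from -0.45 to 0.21 and from -0.42 to 0.31. Slc2a2 with vehicle was at 204 to 285 CPM in Adriamycin and 183 to 216 CPM in healthy mice, with 0.29 ± 0.09 (SE, adjusted p = 0.333 by edgeR). Fbp1, Slc5a2, Slc5a1 and Slc2a1 lay between -0.07 and 0.12 in both comparisons. With FGF23 1 of 9 members was called, where 0.699% of genes were, 3 members and 12.7% of genes had an unadjusted p under 0.05, and 2 of 9 did not overlap, where 6.02% of genes did not. With vehicle edgeR called 0 members, where 0.331% of genes were called. There 2 members and 8.27% of genes had an unadjusted p under 0.05, and 0 members and 5.68% of genes did not overlap. Slc37a4 passed the threshold with DESeq2, whose share of all genes is not given here. Proximal tubule marker sums were 15040 to 16900, 13830 to 16930, 14710 to 16200 and 14960 to 16350 CPM in healthy mice with vehicle, Adriamycin with vehicle, healthy with FGF23 and Adriamycin with FGF23. In the same order, 2 erythroid markers summed to 112.9 to 186.7, 213.5 to 377.8, 61.06 to 137.8 and 69.32 to 146.5 CPM. The 3 adipocyte markers summed to 0.4922 to 23.8, 0.1404 to 0.4132, 0.1413 to 104.7 and 0.1759 to 8.68 CPM. Their part in the results of this experiment was not tested.

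FGF23 against vehicle called no member in BALB/c mice. In healthy BALB/c mice Pck1 was at 5531, 4987, 6375 and 5044 CPM with vehicle and at 4341, 4525, 3278 and 3666 CPM with FGF23, all below. The log2 fold change was -0.47 ± 0.155 (SE), with an unadjusted p of 0.00768 and an adjusted p of 0.688 by edgeR. In Adriamycin mice Pck1 had 0.26 (95% interval -0.07 to 0.59), and G6pc, at 745 to 1028 CPM with FGF23 and 437 to 834 CPM with vehicle, had 0.45 ± 0.17 (SE, adjusted p = 0.825 by edgeR). Ppargc1a was at 108 to 115 CPM with FGF23 and 117 to 134 CPM with vehicle in Adriamycin mice, which did not overlap, with -0.15 (95% interval -0.37 to 0.07). The interaction of FGF23 and Adriamycin was 0.74 ± 0.22 for Pck1 and 0.55 ± 0.24 for G6pc (SE, adjusted p of 0.92 and 0.967 by edgeR), and its unadjusted p was 0.00402 for Pck1. For the other 7 members it lay between -0.22 and 0.12. By edgeR, 0 members were called in these 3 contrasts, in which 0%, 0.0375% and 0% of genes were, and 2, 1 and 2 members had an unadjusted p under 0.05, where 6.69%, 5.69% and 5.11% of genes did. DESeq2 also called 0 members in each, among 16, 35 and 4 genes. In healthy mice 1 member did not overlap between FGF23 and vehicle, where 3.14% of genes did not, and in Adriamycin mice 1, where 3.41% did not. The Adriamycin comparisons share their groups with these contrasts, so the values of Pck1 and G6pc above and here are not independent.

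**Figure D5:**
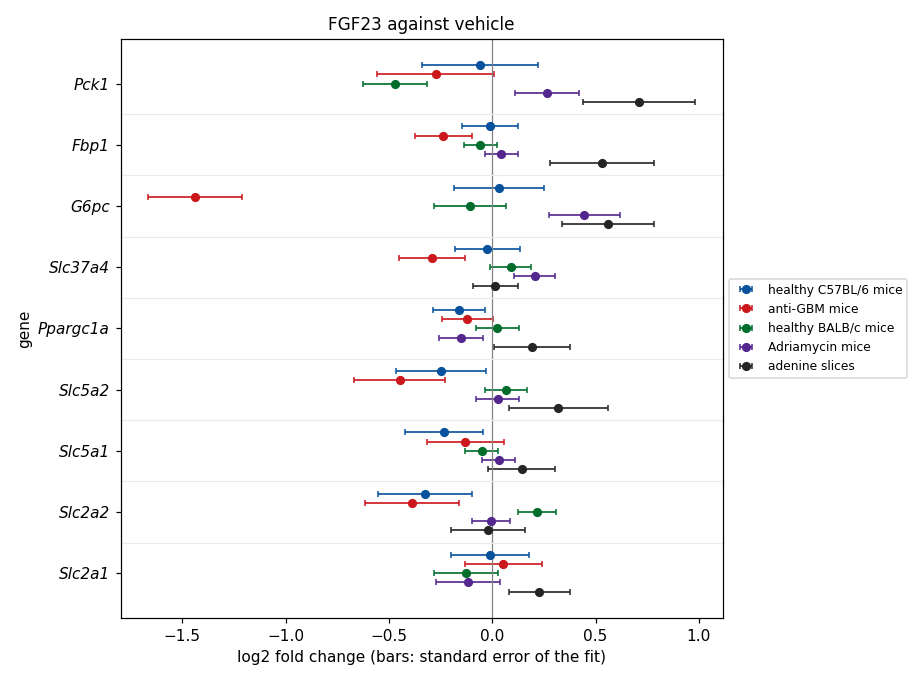
Log2 fold change of each gene with FGF23 against vehicle in 4 groups of mice and in the slices, with bars for the standard error of the edgeR fit. G6pc in anti-GBM mice stands at -1.44, and in the slices 8 of 9 genes lie above 0, with Pck1 highest at 0.71.

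In PCKS, FGF23 was applied to the tissue itself, without the circulation. Pck1 was at 110, 77.4, 155 and 112 CPM with vehicle (cultures 1V to 4V) and at 304, 128, 157 and 155 CPM with FGF23 (1F to 4F), a log2 fold change of 0.71 ± 0.27 (SE, adjusted p = 0.849 by edgeR). G6pc was at 12.9, 9.96, 17.9 and 11.6 CPM with vehicle and at 25.6, 13.02, 19.99 and 18.6 CPM with FGF23, with 0.56 ± 0.22 (SE, adjusted p = 0.849 by edgeR). Fbp1, at 47.1 to 80.4 CPM with vehicle and 58.5 to 136 CPM with FGF23, had 0.53 (95% interval -0.02 to 1.08). The groups overlapped in all 9 members, where 3.17% of genes did not overlap. Culture 1F was highest in Pck1, Fbp1, G6pc, Ppargc1a, Slc5a2 and Slc5a1, and it also had the highest proximal tubule marker sum, 1394 CPM against 599 to 922 CPM in the other 7 cultures, and the highest share of counts on mitochondrial genes, 3.98% against 1.72% to 2.22%. Without 1F the values were 0.37 for Pck1 and 0.40 for G6pc.

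Relative to the proximal tubule markers of the same culture, Pck1 was at 129 to 205 with vehicle and 170 to 218 with FGF23 per 1000 CPM of markers, and G6pc at 16.6 to 23.8 and 18.3 to 25.3, with log2 ratios of 0.23 and 0.11. The median log2 fold change of the proximal tubule markers was 0.43 over the 11 of 12 that could be tested. Slc37a4 (0.02) and Slc2a2 (-0.02) had values near 0, and Slc2a1 was at 1453 to 2398 CPM with vehicle and 2115 to 2433 CPM with FGF23, with 0.23 (95% interval -0.10 to 0.55). By edgeR 0 of 9 members and 0% of genes were called, 2 members and 4.89% of genes had an unadjusted p under 0.05, and DESeq2 called 0 members and 2 genes.

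Further genes of glucose metabolism were counted from lists written with earlier results of these data known. In anti-GBM mice given vehicle, 4 of 19 tested other gluconeogenic enzymes were higher and 1 lower, where 19.4% of all genes were higher and 20.4% lower, and the median was 0.03 on the log2 scale, against -0.01 over all genes. Pck2, the mitochondrial carboxykinase, rose (0.64 ± 0.10 SE, adjusted p = 0.000309 by edgeR) and Pcx, the pyruvate carboxylase that supplies oxaloacetate, fell by 0.44 on the log2 scale (adjusted p = 0.00829 by edgeR). With FGF23 both differed likewise between anti-GBM and healthy mice, at 0.51 and -0.58 (adjusted p of 0.0054 and 0.00566 by edgeR), among 2 higher and 1 lower of 19, where 14.5% of all genes were higher and 12.7% lower. Of 11 tested glycolytic enzymes 6 were higher and 2 lower with vehicle (median 0.34), and 4 were higher and 1 lower with FGF23 (median 0.15), beside the same shares of all genes. Hexokinase 2 (Hk2), the inducible first enzyme of glycolysis, rose from 1.27 to 3.86 CPM with vehicle and from 1.104 to 7.63 CPM with FGF23 in group means (adjusted p of 0.00771 and 0.000868 by edgeR). Pkm, the pyruvate kinase of most non-hepatic cells, rose by 0.55 and 0.48 on the log2 scale (adjusted p of 0.00324 and 0.0213 by edgeR). Hk3, a hexokinase of leukocytes, was higher in both as well, from 0.767 to 1.77 CPM and from 0.759 to 3.03 CPM in group means, beside the leukocyte markers given above.

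Of 14 tested other sugar transporters 2 were higher and 5 lower with anti-GBM disease under vehicle (median -0.12), where 19.4% of all genes were higher and 20.4% lower. With FGF23 there were 2 higher and 3 lower (median -0.37), where 14.5% were higher and 12.7% lower. Slc5a9, a sodium-coupled mannose and fructose carrier, fell by 0.63 and 0.67 and Slc2a12 by 1.08 and 1.02 on the log2 scale (adjusted p of 0.000193, 0.000487, 0.000288 and 0.00182 by edgeR). Slc2a3 (GLUT3), a carrier of neurons and leukocytes, rose by 1.03 and 1.12 from means of 1.38 and 1.34 CPM (adjusted p of 0.00141 and 0.00295 by edgeR). Among 18 regulators of gluconeogenesis 3 were higher and 7 lower with vehicle (median -0.32), and 2 higher and 4 lower with FGF23 (median -0.29), beside the same shares of all genes. Cebpb, a C/EBP transcription factor of gluconeogenic and acute-phase genes, rose from a mean of 11.3 to 58.9 CPM with vehicle and from 13.6 to 36.1 CPM with FGF23 (adjusted p of 8.46e-06 and 0.00144 by edgeR). Hnf4a, the nuclear receptor that maintains proximal tubule and hepatocyte genes, fell by 0.49 and 0.47 (adjusted p of 0.00139 and 0.00646 by edgeR), beside the lower proximal tubule markers. FGF23 against vehicle called no gene of the 4 lists in healthy C57BL/6 mice, in anti-GBM mice or in the interaction by edgeR.

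In the Adriamycin experiment few genes of these lists were called. Cebpb rose with FGF23 in Adriamycin mice, from a mean of 12.98 to 35.5 CPM (1.46 ± 0.18 SE, adjusted p = 0.00543 by edgeR), and it was 1.498 higher on the log2 scale than in healthy mice given FGF23 (adjusted p = 0.00124 by edgeR). With Adriamycin and FGF23, Slc5a8, a sodium-coupled carrier of lactate and other monocarboxylates, and Slc2a5 (GLUT5), the fructose carrier, were higher than in healthy mice given FGF23, by 0.51 and 0.43 (adjusted p of 0.00317 and 0.0171 by edgeR). In anti-GBM mice given vehicle Slc5a8 had -0.83 (adjusted p = 0.00608 by edgeR). Sik1, a salt-inducible kinase that restrains CREB signalling, was lower with Adriamycin under vehicle, with -0.48 (adjusted p = 0.049 by edgeR), and higher in anti-GBM mice under vehicle, with 0.51 (adjusted p = 0.0495 by edgeR). No gene of the lists of other gluconeogenic or glycolytic enzymes was called in a comparison of this experiment, none of the 4 lists in PCKS, and FGF23 against vehicle in healthy BALB/c mice and the interaction called none of the 4 lists.

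Across mice, once the mean of each group was subtracted, the genes whose log2 CPM was most like that of G6pc were Rilp (r = 0.85), Gne (0.83) and Terf2 (0.81) over the 14 mice of the anti-GBM experiment, followed by Ankzf1 (0.81) and 4833413G10Rik (0.79). Over the 16 mice of the Adriamycin experiment they were Tldc2 (0.87), A1cf (0.86), Rnf186 (0.85), Grb14 (0.84) and Cndp1 (0.81). No gene was in both lists. Of the members, Fbp1 (0.57 and 0.67), Slc37a4 (0.55 and 0.70) and Slc5a2 (0.53 and 0.55) had positive values in both experiments, Slc2a2 had 0.25 and 0.68 and Pck1 0.39 and 0.36. Slc5a1 (-0.46 and -0.31) and Slc2a1 (-0.28 and -0.53) ran the other way, and Ppargc1a (0.12 and -0.16) did not keep a sign. These are Pearson values over mice, given as a description, and the genes compared share the tissue makeup of each sample. In the anti-GBM experiment, G6pc of NTS5 was at 999 CPM and that of the other anti-GBM mice given vehicle at 452 to 592 CPM.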

How the data were processed

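Kidney RNA was sequenced from poly-A selected libraries, and the authors deposited raw counts of reads per gene for 38 libraries. Per the methods, reads were demultiplexed with bcl2fastq 2.20.0, aligned to GRCm38 with STAR 2.7.9a and assigned to annotated genes with featureCounts 1.5.1, and the submitters' processing notes also name FastQC 0.11.8. The strand setting of the counting is not given in the sources used here. Groups and biological replicates are those of the sample labels. The count columns of the slices match label titles. Those of the mouse experiments carry only a mouse name, which the labels do not hold, so they were tied to the labelled groups through the group rows of the study's supplementary count sheets, whose counts were equal in the genes compared (at least 1081 per sheet). The library called NTS14 here has a column name ending in NTS4, and the sheet names it NTS14.2. A short group row of the slices' sheet disagrees with its treatment row, and the label titles were followed. Between any 2 libraries of one group the counts differed by more than sampling noise, with a chi-square per degree of freedom of at least 2.02.

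For each experiment, genes were filtered with filterByExpr (minimum count 10), scaled with TMM and fitted over all its groups with the quasi-likelihood test of edgeR 4.0.16 in R 4.3.3, without a replicate block. P-values were adjusted over all genes tested by Benjamini-Hochberg, with a threshold of 0.05, and 95% intervals are from the same fit. The study itself used DESeq2, which here (1.42.0) was an alternative, beside other scalings, filters, fits and call rules and leaving out each library. CPM were computed with the TMM factors and divided by exon length for levels between genes. The members and the gene lists were chosen with earlier results of these data known. All 9 members are named, and of each further list up to 4 called genes per comparison with the smallest p. Where such a gene was called in another comparison, its value there is also given. A gene of the regulator list is counted but not reported here. Intervals cover the spread between these libraries, and strand-overlapping genes were not separated.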

Additional observations from a re-analysis of the deposited data

Results flagged for a closer look

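Of 72 checks of the highest and lowest library (9 genes in 8 groups of 4), 2 found a library far from the others of its group, where chance alone gives about 1 in 20. Ppargc1a was at 95.89 CPM in mouse NTS8 of the anti-GBM mice given vehicle, and the next highest of the group was at 74.77 CPM. Pck1 was at 303.8 CPM in culture 1F of the slices given FGF23, and the next highest was at 156.5 CPM. Culture 1F also had the highest proximal tubule marker sum and mitochondrial share of the 8 cultures, and their part in the Pck1 value was not tested.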

How the results depend on the processing

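The counts of called members, here with G6pc, moved with several settings, and the cause was not tested. Beside them, the main fit called 39.8% and 27.2% of all genes tested in anti-GBM with vehicle and with FGF23. In Adriamycin with vehicle and with FGF23 it called 0.331% and 0.699%. For FGF23 in anti-GBM mice it called 0.24%, and in the anti-GBM interaction 0.0315%. With an absolute log2 fold change above 1 in addition, anti-GBM against healthy mice had 1 member called instead of 3 with vehicle and 0 instead of 3 with FGF23, and Adriamycin against healthy mice with FGF23 had 0 instead of 1. Of 15859 genes tested, this rule called 1554 and 1444 in the anti-GBM comparisons with vehicle and FGF23. With at least 1 count in the experiment as the only filter, the anti-GBM interaction had 1 instead of 0 and Adriamycin with FGF23 had 2 instead of 1. In that interaction 29 of 30487 genes were then called. DESeq2 called 1 in the anti-GBM interaction, which was G6pc from the contrast the list was selected on, 1 for Adriamycin with vehicle and 2 for Adriamycin with FGF23. Over all genes, DESeq2 called 44 in that interaction. With only the groups compared in the fit, anti-GBM with FGF23 had 5, FGF23 in anti-GBM mice 0 and Adriamycin with FGF23 0. Those fits called 4399 of 15371 genes in anti-GBM with FGF23 and 12 of 15454 for FGF23 in anti-GBM mice. Leaving out 1 library gave 2 to 6 members for anti-GBM with vehicle, 0 to 4 for anti-GBM with FGF23, 0 to 1 for FGF23 in anti-GBM mice (0 without NTS13), 0 to 1 for Adriamycin with vehicle, 0 to 1 for Adriamycin with FGF23, and 0 in the other 6 comparisons. For these refits and the alternative settings in the Adriamycin experiment, the number of all genes called is not given here. Nothing is read from those member counts. Relative to the proximal tubule markers, a scale chosen after the data were seen, the log2 difference of Fbp1 between anti-GBM and healthy mice turned to 0.19 with vehicle and 0.11 with FGF23, 8 further fold changes moved by more than the replicate spread and 12 did not. The fold changes followed for single members were refitted with each library left out. Of these refits 283 kept direction and side of the threshold, 26 lost the threshold and 7 gained it. Only values called in the main fit could lose it, and most of those followed were not called. For anti-GBM with FGF23, Pck1 lost it in 6 of 14 refits, and with vehicle in 0 of 14. These totals and the counts of members above include G6pc. The list was selected on its level in anti-GBM libraries, so nothing is read from its calls there. Under the other settings, apart from the marker scale, 115 refits kept both, 4 lost and 10 gained it. Groups of 3 or 4 libraries limit what can be called.

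With the replicate number as a replicate block in the slices, 0 members were called, and Pck1 had 0.67 and G6pc 0.55 on the log2 scale. Deviations of same-numbered cultures correlated at 0.107, 0.105, -0.105 and 0.112, and other pairs at -0.161 to 0.124. With 3 of 4 pairs above 0.1 and 1 below 0, the cultures were taken to share only a number. Of the 8 cultures 5 correlated best with their own number, a hint from the data and not the design. In CPM, Pck1 and G6pc were higher with FGF23 in all 4 numbered pairs, though Pck1 in pair 3 was at 154.6 and 156.5 CPM. Relative to the proximal tubule markers, Pck1 was lower with FGF23 in pair 3 (205.4 and 169.8 with vehicle and FGF23). On that scale G6pc was lower in pairs 1 (19.5 and 18.3) and 3 (23.8 and 21.7). Both genes were higher in their other pairs. Count columns of the mouse experiments carry no replicate number of the labels, so no block was fitted there.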
